A study of Homo sapiens with 12 samples.

Results

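Histone genes were examined in HCT116 and RKO, established human colorectal cancer cell lines. Members were the genes whose mapped symbol starts with H1-, H2AC, H2AZ, H2AX, H2AJ, H2BC, H3C, H3-, H4C, H4- or MACROH2A and that were above 0 TPM in any library. TPM is a gene's length-adjusted share of the transcripts of a library. Of 20263 genes in the tables, 80 carried such a symbol. Of these, 7 were listed at 0 in every library (H2AC1, H2AC15, H2AC16, H2BC1, H3C4, H4C6 and H4C13), which left 73 members. They comprised 59 clustered replication-dependent genes and 14 variant or other genes. The clustered genes were 6 of H1, 12 of H2A, 18 of H2B, 10 of H3 and 13 of H4. A further 6 identifiers had only an older histone name, none above 4.54 TPM, and were not counted.

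The libraries form 4 groups of 3. HCT116 carried either an empty vector or a construct that overexpresses CKAP2L, a mitotic spindle protein. RKO carried either a negative control (NC) or a short hairpin against CKAP2L (shCKAP2L). The promoter of the construct, the hairpin sequence, the number of clones and whether the replicates are separate cultures are not given in the labels used here. The p-values therefore reflect variation from library to library, which may be technical. For replicates 2 and 3 of RKO shCKAP2L the genotype labels read shCKAP3L and shCKAP4L, unlike the titles, and the titles were used. The labels do not settle which is right. CKAP2L was 14.0 ± 1.21 TPM with vector and 226.8 ± 6.80 with the construct (SD, n = 3 each). In RKO it was 24.9 ± 0.88 with NC and 7.99 ± 0.507 with shCKAP2L. Depth is unknown, because TPM keeps none. Of 10 epithelial and colorectal markers, 7 had a mean of at least 1 TPM in HCT116 and 4 in RKO, where KRT19, CDH1, CDX1 and VIL1 were at or near 0. Of 7 immune markers, 6 (PTPRC among them) were under 1 TPM in every group, while CD68, a lysosomal protein abundant in macrophages, was at 31.3 TPM in HCT116 vector and 27.7 with CKAP2L, and at 1042 TPM in RKO NC and 1065 with shCKAP2L, not called in either line. Fewer cells in a cell-cycle phase and less RNA per cell cannot be told apart in such bulk libraries.

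Histones package DNA. A nucleosome wraps DNA around pairs of H2A, H2B, H3 and H4, and linker H1 binds where the DNA enters and leaves. Clustered histone genes lie in groups on chromosomes 6 and 1, have no introns as a rule, and are expressed mainly in S phase, when new DNA needs new nucleosomes. Their mRNAs usually end in a short stem-loop bound by the protein SLBP, without the poly(A) tail of other mRNAs. Variant histone genes as a rule lie alone, make polyadenylated mRNA and are expressed outside S phase too. The classes used here follow the symbols. H3-4, which lies in a cluster on chromosome 1, and H2AX were counted as variants though both hold the stem-loop. Some clustered genes also make polyadenylated forms, as is known for several histone mRNAs in differentiated cells. Per the labels, an mRNA library kit was used. A kit that selects poly(A) RNA would count mainly the polyadenylated forms of the clustered genes; whether it did so is not stated in the labels, and the part of this in any result was not tested.

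The 3′ stem-loop is shown first, because it marks the mRNAs of the clustered class. The histone stem-loop consensus (16 bases, sense strand only, with the loop fixed in its first bases and the stem in most) was searched in GENCODE release 29 transcripts, and the capitals mark the 4-base loop.
H2BC21: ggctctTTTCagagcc
H2BC5: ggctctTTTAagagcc
H4C9: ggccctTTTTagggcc
H2AX: ggccctTTTAagggcc
The spelling shown for H2BC21 was the commonest, in 15 members. In all, 28 clustered genes and 2 others, H2AX and H3-4, held a match, against 34 (0.173%) of 19684 protein-coding genes. The members were not left out of these 34, which count protein-coding transcripts only. Members were searched in all their annotated transcripts. For 27 of the 28 clustered genes, at least 1 annotated transcript ran more than 20 bases past the stem-loop. H2BC6, H2BC15 and H4C8 also had a transcript that ended within 20 bases of it. In H2BC21 it ran on for 1729 of 2194 bases, and in H4C9 for 212 of 1294. For 25 clustered genes the longest protein-coding transcript holds the coding sequence alone, so a missing match there says nothing about the mRNA. H1-2 and H2BC12, the most abundant clustered genes of RKO, are among these 25.

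The promoters of 3 clustered H2B genes are shown next, because H2BC21 and, at a low level, H2BC18 rose in RKO while H2BC12 fell. Each is 300 bases on the minus strand, 250 before to 50 after the start, from RefSeq on GRCh38.p14. Capitals mark TATAAA (the TATA box), CCAAT (bound by NF-Y), ATTTGCAT (the octamer of H2B promoters), TTTNNCGC (an E2F-type motif) and GGTCCG (known from H4 promoters), searched on both strands, with adjoining or overlapping matches in 1 run.
H2BC21, chr1:149886633-149886932: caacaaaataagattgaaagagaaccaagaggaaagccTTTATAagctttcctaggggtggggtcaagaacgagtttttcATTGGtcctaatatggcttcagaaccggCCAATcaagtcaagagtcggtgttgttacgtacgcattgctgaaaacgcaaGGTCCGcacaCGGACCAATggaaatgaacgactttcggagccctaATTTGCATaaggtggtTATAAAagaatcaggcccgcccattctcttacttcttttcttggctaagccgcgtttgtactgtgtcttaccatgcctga
H2BC18, chr1:149812321-149812620: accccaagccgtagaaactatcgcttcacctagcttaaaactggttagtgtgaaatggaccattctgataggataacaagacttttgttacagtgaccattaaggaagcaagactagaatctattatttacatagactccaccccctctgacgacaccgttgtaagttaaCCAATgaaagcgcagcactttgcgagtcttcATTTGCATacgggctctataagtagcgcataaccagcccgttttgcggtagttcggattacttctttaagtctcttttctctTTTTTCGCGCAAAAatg
H2BC12, chr6:27146806-27147105: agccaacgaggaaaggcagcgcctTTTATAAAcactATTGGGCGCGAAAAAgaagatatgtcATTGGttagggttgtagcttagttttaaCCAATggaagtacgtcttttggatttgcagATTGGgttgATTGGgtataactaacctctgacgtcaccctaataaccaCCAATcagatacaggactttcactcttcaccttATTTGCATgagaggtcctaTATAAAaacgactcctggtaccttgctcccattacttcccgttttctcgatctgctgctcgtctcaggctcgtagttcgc
All 3 windows hold CCAAT and the octamer. The string TATAAA was found in those of H2BC21 and H2BC12 and not in that of H2BC18. Other spellings of a TATA box were not searched, so its absence from H2BC18 is not shown. GGTCCG was found only in that of H2BC21 among these 3. The table held a promoter for 65 members. Among clustered genes the octamer stood in 81.8% of H2A and 76.5% of H2B windows and in none of H1, H3 or H4, against 1.77% of all 35116 promoters. CCAAT stood in all H1, H2A, H2B and H3 windows and in 9.09% of H4 windows, against 34.6% of all promoters. TATAAA stood in 67.9% of clustered windows against 11.5% of all. These matches are descriptions and not binding sites.

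The histone mRNA measured came mostly from variant genes. Their summed level was 3192 ± 51.7 TPM in HCT116 vector and 3318 ± 38.9 in RKO NC (SD, n = 3). The 59 clustered genes summed to 217.6 ± 2.11 and 760.3 ± 20.2 TPM in the same groups. The median clustered gene was at 0.393 TPM in HCT116 vector and 2.06 in RKO NC. Only 4 and 10 clustered genes, in that order, exceeded 10 TPM.

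H2AZ1, which encodes the H2A.Z found at promoters, was at 793.7 TPM in HCT116 vector, 24.9% of the variant sum. H3-3B and H3-3A encode the same replacement H3, laid down outside replication, and stood at 534.9 and 109.8 TPM. In RKO NC, H2AZ1 was at 1171 TPM and H3-3B at 481.3. H2AX, the variant that is phosphorylated at DNA breaks, was at 248.2 TPM in HCT116 vector and 412.4 in RKO NC. H1-10, a linker histone gene, was at 260.4 and 350.7 TPM. Neighbours in this order that did not separate by library were H1-10 and H2AX in HCT116 vector.

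**Figure D1:**
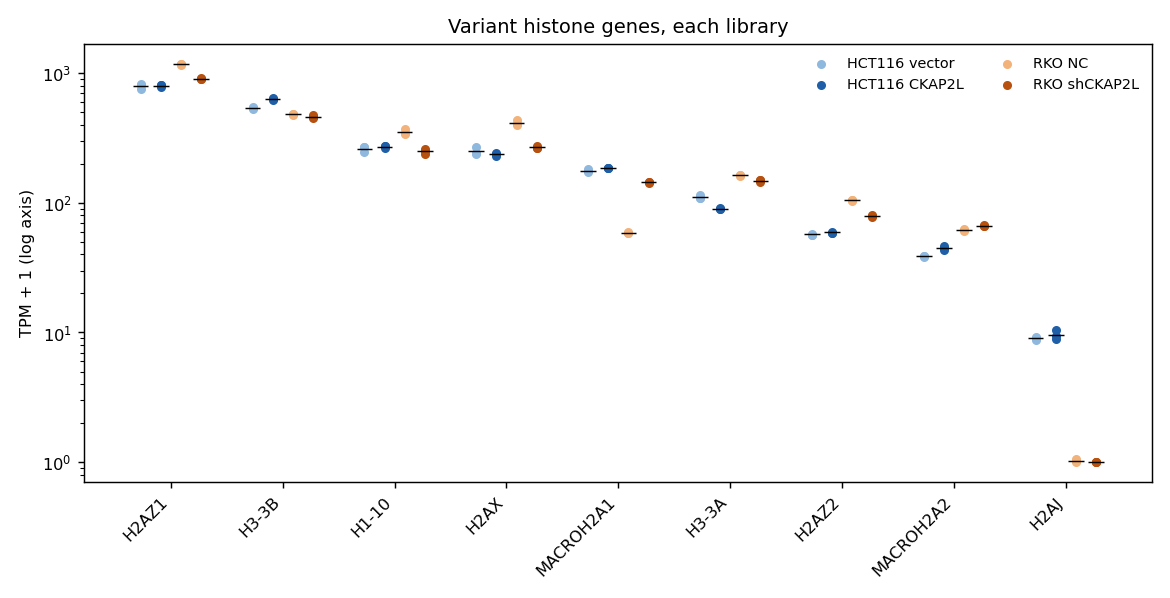
TPM + 1 on a log axis for 9 variant genes with a mean of at least 1 TPM in either line, 1 point per library and a black bar at each group mean. MACROH2A1 is the gene whose RKO groups lie farthest apart among these 9, and H2AJ is seen only in HCT116.

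Clustered levels were concentrated in few genes. In HCT116 vector, H2BC12 held 30.0% of the clustered sum, H1-2 20.2%, H2AC25 13.6% and H2BC5 12.6%. In RKO NC, H1-2 held 34.7% and H2BC12 28.6%. H2BC12 (an H2B gene, chromosome 6 position 27146418 to 27146798, minus strand) was at 65.2 ± 8.89 TPM in HCT116 vector and 217.7 ± 4.97 in RKO NC. Of its 50-base windows 74.1% also occur in another gene, 61.4% in H2BC12L on chromosome 21. The sources used here do not give how reads that match several genes were treated. H1-2 (chromosome 6 position 26055787 to 26056428, minus strand), a linker histone gene, shares no such window.

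The lines differed in which clustered genes were seen at all. These are levels from 2 separately made tables, given without a test. No such count was made over all genes, so none given here is shown to be particular to histone genes. All 6 RKO libraries lay above all 6 HCT116 libraries for 30 of 59 clustered genes, and the reverse held for none. Among the variants, RKO lay above for 4 genes and HCT116 for 5. For 9 genes, every HCT116 library was under 1 TPM and every RKO library over it: H2BC7, H2BC8, H2BC9, H2BC13, H2AC8, H3C8, H4C8, H4C11 and H4C16. All but H4C16 lie in the chromosome 6 cluster. H2AC8, an H2A gene, was 0.19 ± 0.0173 TPM in HCT116 vector and 14.9 ± 1.87 in RKO NC. H2AJ, a variant H2A gene, was the only member with the reverse pattern, with 7.99 ± 0.221 TPM in HCT116 vector and 0.0267 ± 0.0252 in RKO NC.

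**Figure D2:**
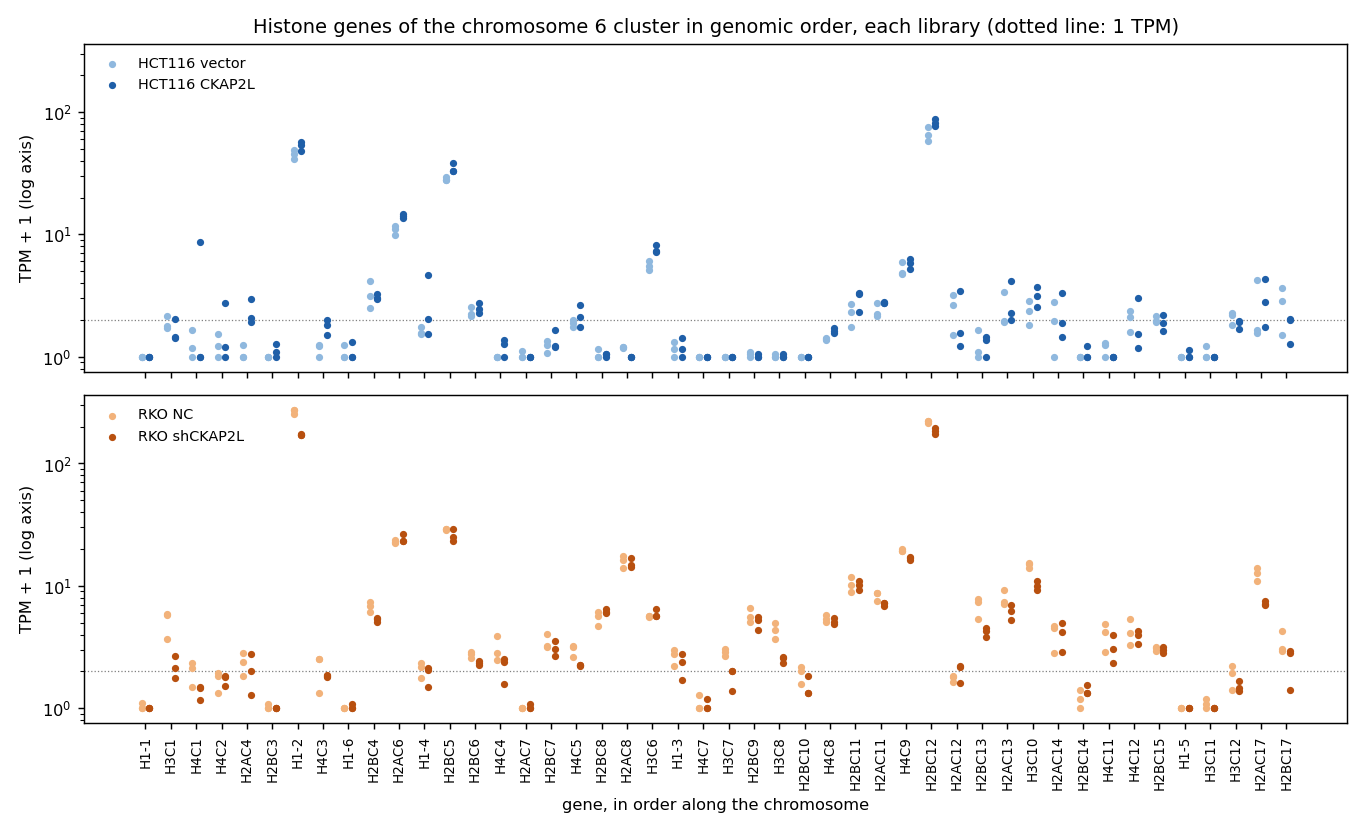
TPM + 1 on a log axis for the 46 histone genes of the chromosome 6 cluster in genomic order, 1 point per library, HCT116 above and RKO below. H1-2, H2BC5, H2AC6 and H2BC12 stand out in both lines, and several genes from H2BC7 to H4C8 are seen only in the RKO panel.

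In HCT116, overexpression of CKAP2L went with small rises in a minority of histone genes. Of 73 members, 35 had a mean of at least 1 TPM and were tested with limma on log2(TPM + 1), with adjustment over 12732 genes. Of these 35, 8 rose and 1 fell, at adjusted p under 0.05. Of all genes tested, 16.4% rose and 4.26% fell (20.6% in either direction), against 22.9% and 2.86% of the members. Libraries of the groups did not overlap, with CKAP2L higher, for 6 clustered and 5 variant genes, against 28.3% of all genes. They did not overlap with CKAP2L lower for 0 clustered and 1 variant gene, against 8.98%. The rises were 5 of 25 clustered and 3 of 10 variant genes, and the fall was a variant. The median log2 fold change was 0.23 for the clustered genes and 0.06 for the variants, beside 0.05 for all genes. Of the 25 clustered genes tested, 7 passed the filter only through 1 group and 19 had a mean under 5 TPM, so these counts do not speak for all 59.

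Among variants, the replacement H3 genes moved in opposite directions. H3-3A fell from 107.3, 108.6 and 113.3 TPM to 89.2, 88.9 and 89.7 TPM (log2 fold change -0.29 ± 0.03, SE; limma adjusted p = 4.99e-05). H3-3B rose from 537, 543 and 525 TPM to 635, 623 and 641 TPM (0.24 ± 0.03, limma adjusted p = 3.94e-05). Neither gene's groups overlapped. H3-3A shares 12.9% of its 50-base windows with a pseudogene. MACROH2A2, a macroH2A with a large extra domain found in silent chromatin, rose by 0.21 ± 0.04 from 37.8 to 43.7 TPM (limma adjusted p = 0.00329). The other 6 tested variants, H1-10, H2AX, H2AZ1, H2AZ2, H2AJ and MACROH2A1, had log2 fold changes of -0.07 to 0.09 and were not called.

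Among clustered genes, the largest called change was that of H3C6, an H3 gene. It was at 4.55, 4.13 and 5.02 TPM with vector and at 6.27, 6.15 and 7.11 TPM with CKAP2L, without overlap (0.43 ± 0.09, limma adjusted p = 0.00294). H2AC6, an H2A gene, went from 8.80, 10.0 and 10.7 TPM to 12.7, 13.1 and 13.7 TPM (0.39 ± 0.07, limma adjusted p = 0.00179). H2BC5, an H2B gene, went from 26.9, 26.9 and 28.5 TPM to 32.0, 37.0 and 32.1 TPM (0.28 ± 0.06, limma adjusted p = 0.00344). In all 3 genes each CKAP2L library lay above each vector library. H2BC12 rose by 0.32 ± 0.07 (limma adjusted p = 0.00872), from 57.2, 63.6 and 74.8 TPM to 87.3, 76.4 and 79.9 TPM. H1-2 rose by 0.23 ± 0.07 (limma adjusted p = 0.0234), with overlapping libraries of 44.1, 47.7 and 40.1 TPM against 52.7, 46.9 and 56.2 TPM.

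The calls of H1-2 and H2BC12 depended on single libraries and on scaling. Without CKAP2L replicate 1, limma gave an adjusted p of 0.0874 for H1-2 and 0.0539 for H2BC12, and the clustered genes called higher were 3 in place of 5. Without CKAP2L replicate 3, H1-2 had 0.107 and 8 clustered genes were called higher. Without vector replicate 3, H1-2 had 0.0601 and 1 clustered gene was called lower. Over all alternatives, the limma adjusted p of H1-2 ranged from 0.00675 to 0.148 and that of H2BC12 from 0.000178 to 0.0712. H4C1 had the largest fitted change of this line (0.73 ± 0.58, limma adjusted p = 0.399) and rested on 1 library, with 7.67 TPM in CKAP2L replicate 1 and 0 in replicates 2 and 3. The direction of calls over all genes also depended on scaling, with 2082 higher and 543 lower as deposited and 1119 and 1203 after median-of-ratios rescaling. Under that rescaling 4 clustered genes were called higher and 0 lower.

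In RKO, shCKAP2L went with lower levels of most variants and with marked rises of H2BC21 and MACROH2A1. In the chromosome 6 cluster 54.8% of the tested histone genes fell, near the 47% of all other genes of chromosome 6. Of 47 members tested, 5 rose and 24 fell, with limma over 11442 genes. Of all genes tested, 26.4% rose and 42.1% fell (68.5% in either direction), against 10.6% and 51.1% of the members. Groups did not overlap, with shCKAP2L lower, for 14 clustered and 7 variant genes, against 43.3% of all genes. They did not overlap with shCKAP2L higher for 4 clustered and 2 variant genes, against 28.1%. Among variants 2 of 9 rose and 7 fell, and among clustered genes 3 of 38 rose and 17 fell. The median log2 fold change was -0.37 for variants and -0.20 for clustered genes, beside -0.05 for all genes. Of the 38 clustered genes tested, 3 (H2BC18, H2BC26 and H3C7) passed the filter only through 1 group and 23 had a mean under 5 TPM.

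H2BC21 (chromosome 1 position 149884459 to 149886652, minus strand), an H2B gene known to yield polyadenylated mRNA, had the largest log2 fold change of any member at a pseudocount of 1. At a pseudocount of 0.1 it was 1.5, and that of H3C1 was larger, at -1.73. Its NC libraries were at 12.6, 11.6 and 11.5 TPM and its shCKAP2L libraries at 33.9, 33.6 and 33.7 TPM. The groups lay far apart, with a log2 fold change of 1.43 ± 0.04 (limma adjusted p = 4.97e-13). MACROH2A1 (chromosome 5 position 135333900 to 135399914, minus strand) encodes the more widely expressed macroH2A, and its splice forms are summed in a gene-level value. It went from 58.5, 57.1 and 57.6 TPM to 140.6, 143.7 and 144.8 TPM, also without overlap (1.29 ± 0.03, limma adjusted p = 2.19e-14). With shCKAP2L it remained below HCT116 vector, which had 175.7, 180.6 and 171.9 TPM in the other table. Its related gene MACROH2A2 rose by only 0.11 ± 0.03, from 60.7 to 65.4 TPM (limma adjusted p = 0.00407).

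The other 7 variants fell. H2AX had the largest fall, from 405.8, 431.8 and 399.5 TPM to 263.6, 262.9 and 273.4 TPM (-0.63 ± 0.03, limma adjusted p = 8.48e-11). H1-10 fell from 336, 373 and 343 TPM to 237, 249 and 261 TPM (-0.49 ± 0.04, limma adjusted p = 1.92e-08). Neither gene's groups overlapped in this line. The H2A.Z genes moved alike. H2AZ1 fell by 0.37 ± 0.02, from 1177, 1176 and 1159 TPM to 911, 895 and 908 TPM, and H2AZ2 fell by 0.41 ± 0.03, from 103.9 to 78.1 TPM, with limma adjusted p-values of 7.99e-10 and 5.23e-09. H3-3A fell by 0.14 ± 0.03 from 162.0 to 147.2 TPM (limma adjusted p = 0.000172). H3-3B changed by -0.07 ± 0.02 (limma adjusted p = 0.0252), and after quantile normalization by 0.01, with the sign turned and no call (adjusted p = 0.728). Its call was also lost on leaving out NC replicate 1 or 3 or shCKAP2L replicate 2 or 3, with limma adjusted p-values of 0.0533 to 0.126.

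**Figure D3:**
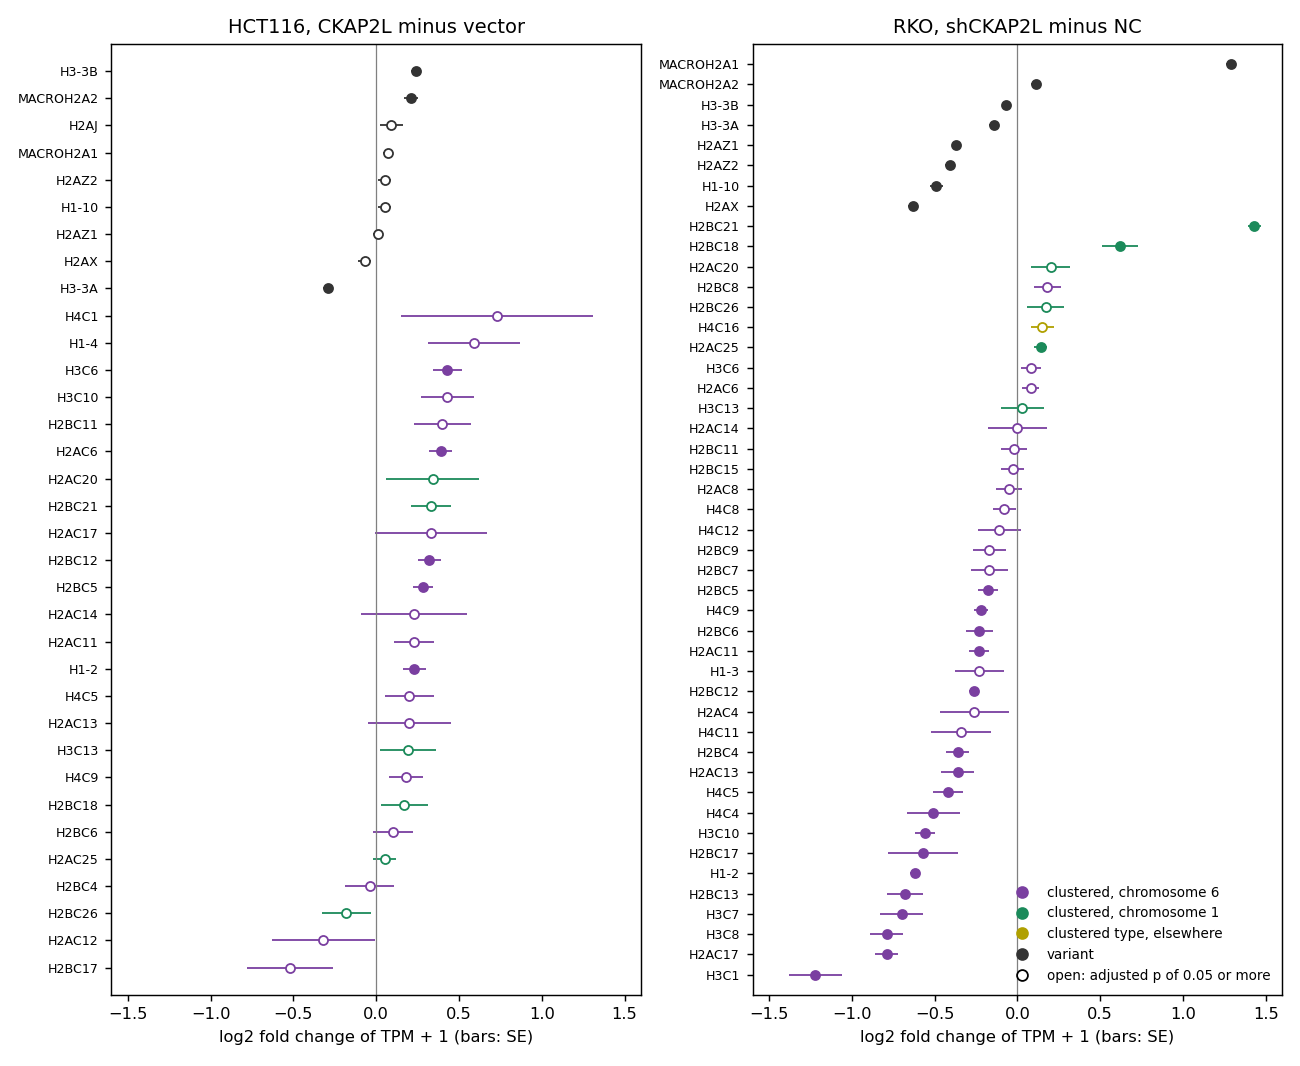
Log2 fold change of TPM + 1 with its SE for every tested member but 1, HCT116 on the left and RKO on the right, variants above clustered genes; filled points were called. In RKO the called clustered genes below 0 are all of chromosome 6, and those above 0 all of chromosome 1.

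The clustered genes of RKO are also given by position, a grouping noticed after the values were seen and not tested. In the chromosome 6 cluster (position 26017085 to 27893843), 17 of 31 tested histone genes fell (54.8%) and 0 rose, against 47% lower and 24.2% higher among all other genes of chromosome 6. In the chromosome 1 clusters, 3 of 6 rose (H2BC21, H2BC18 and H2AC25) and 0 fell, against 28.5% higher and 40.4% lower among all other genes of chromosome 1. H2BC18, like H2BC26 among the 6, passed the filter only through shCKAP2L. The share that fell on chromosome 6 thus lay near that of its other genes. Of the 14 other genes tested inside the chromosome 6 cluster, 10 fell and 1 rose. Among the other genes within 1 Mb of the 1q21 cluster, 7 of 25 rose and 6 fell. In HCT116 all 5 clustered genes called were in the chromosome 6 cluster, among 19 tested there, and 0 of 6 were called on chromosome 1. Among other genes, 15.5% rose on chromosome 6 and 16.8% on chromosome 1, a rate at which 0 of 6 says little.

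H1-2 accounted for most of the TPM lost in the clustered class. It went from 251.4, 269.9 and 270.6 TPM to 170.6, 171.2 and 172.7 TPM, without overlap (-0.62 ± 0.03, limma adjusted p = 7.56e-11). H2BC12 went from 212.1, 219.9 and 221.2 TPM to 192.4, 181.8 and 172.4 TPM (-0.26 ± 0.03, limma adjusted p = 7.74e-06). The clustered sum was 738.5, 764.3 and 778.2 TPM with NC and 641.0, 619.4 and 620.6 TPM with shCKAP2L, a ratio of group means of 0.825. Without H1-2 and H2BC12, an alternative chosen after seeing the data, the sums overlapped, at 278.6 ± 6.75 and 273.3 ± 6.16 TPM, and the ratio was 0.981. That ratio was 1.01 after median-of-ratios rescaling. The 57 genes left in this sum include H2BC21, which rose from 11.89 to 33.74 TPM, and others that were called lower. The overlap of the sums therefore does not show that these genes were unchanged. The variant sum fell from 3318 to 2675 TPM, a ratio of 0.806. In HCT116 the ratios were 1.21 for clustered and 1.10 for variant genes.

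Among clustered H3 genes, 4 of 6 tested fell (66.7%) and 0 rose, against 42.1% and 26.4% of all genes. The falls include H3C7, which passed the filter only through NC, where it is high. Its log2 fold change ranged from -1.24 to -0.25 over the alternatives. H3C1, an H3 gene (chromosome 6 position 26020490 to 26020900, plus strand), went from 2.71, 4.86 and 4.80 TPM to 1.65, 0.77 and 1.14 TPM (-1.22 ± 0.16, limma adjusted p = 5.51e-06). At such levels the fold depends on the pseudocount, with -1.73 at 0.1 and -0.55 at 5. H3C8 changed by -0.79 ± 0.10, H3C7 by -0.70 ± 0.13 and H3C10 by -0.56 ± 0.06. H3C10 is the best expressed of these, at 14.1, 12.9 and 14.5 TPM with NC and 9.03, 8.22 and 9.88 TPM with shCKAP2L. The summed level of the 10 clustered H3 genes went from 30.3 ± 2.24 to 19.5 ± 1.02 TPM, without overlap.

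Among H4 genes, 3 of 7 fell (42.9%) and 0 rose, a share lower that is near the 42.1% of all genes. H4C9, the most abundant, went from 18.5 ± 0.297 to 15.8 ± 0.511 TPM (-0.22 ± 0.04, limma adjusted p = 0.00018). H4C5 fell by 0.42 ± 0.09. H4C4 had -0.51 ± 0.16 (limma adjusted p = 0.013), which was -0.33 without NC replicate 3 and -0.30 without shCKAP2L replicate 1, with adjusted p-values of 0.113 and 0.0705.

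Among H2B genes, 6 of 14 fell (42.9%) and 2 rose (14.3%), against 42.1% and 26.4% of all genes. H2BC13 changed by -0.68 ± 0.11, from 5.83 to 3.22 TPM (limma adjusted p = 6.61e-05). H2BC4 changed by -0.36 ± 0.07 (limma adjusted p = 0.000357). H2BC17 had -0.57 ± 0.21, which was -0.22 without shCKAP2L replicate 3 (limma adjusted p = 0.122) and -0.40 without NC replicate 1 (0.139). H2BC5 had -0.18 ± 0.06. Without shCKAP2L replicate 2 this was -0.10 (limma adjusted p = 0.105), without shCKAP2L replicate 1 it was -0.27, and without NC replicate 3 it was -0.17 (limma adjusted p = 0.0562). H2BC6 had -0.23 ± 0.08 and lost its call without NC replicate 1 or shCKAP2L replicate 2 (limma adjusted p = 0.0676 and 0.0612). H2BC18, an H2B gene, rose by 0.62 ± 0.11 from 0.62, 1.06 and 1.27 TPM to 2.13, 1.80 and 2.17 TPM (limma adjusted p = 0.000119). Its NC mean was under 1 TPM, so it passed the filter only through shCKAP2L, where it is high. Over the alternatives its log2 fold change ranged from 0.23 to 1.02. H2BC18 shares 13.9% of its 50-base windows with other genes. Without NC replicate 3, 5 clustered genes were called higher in place of 3.

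Among clustered H2A genes, 3 of 9 fell (33.3%) and 1 rose (11.1%), both below the shares of all genes. H2AC17 changed by -0.79 ± 0.07, from 11.7, 9.92 and 12.9 TPM to 6.15, 5.91 and 6.52 TPM (limma adjusted p = 1.16e-07). Of its 50-base windows 86.3% also lie in a transcript of H3C12, so reads of these genes may have been split or shared. H2AC13 fell by 0.36 ± 0.10 and H2AC11 by 0.23 ± 0.06. H2AC13 shares 62.3% of its windows with H2AC14, which was not called. H2AC25, the most abundant clustered H2A gene, rose by 0.14 ± 0.04, from 45.3 to 50.1 TPM (limma adjusted p = 0.00254). The summed level of the 12 clustered H2A genes, variants left out, overlapped between the groups, at 122.0 ± 2.95 and 120.9 ± 2.81 TPM.

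Many H2A and H2B genes are arranged head to head and share a promoter region. Among members, 11 pairs had starts within 500 bases of each other on opposite strands, and in 7 pairs both genes were tested in RKO. The start of H2BC21 lies 323 bases from that of H2AC20, so the window printed for H2BC21 also covers most of the H2AC20 promoter. H2AC20 was at 7.07, 7.80 and 11.7 TPM with NC and 10.6, 10.6 and 9.27 TPM with shCKAP2L, with overlapping groups (0.20 ± 0.12, limma adjusted p = 0.134). The log2 ratio of H2BC21 to H2AC20 was 0.75, 0.51 and -0.02 with NC and 1.59, 1.58 and 1.76 with shCKAP2L. These ratios did not overlap, with a two-sided exact permutation p of 0.1, the smallest that 3 against 3 allows. H2AC20 shares 30.5% of its 50-base windows with an identifier that has only an older name. Among the 13 ratios tested over both lines, H2BC4 to H2AC6 in RKO was the other one at 0.1, where the mean log2 ratio moved from -1.76 to -2.20. In that pair H2BC4 fell and H2AC6 had 0.08 ± 0.05 (limma adjusted p = 0.128). After Benjamini-Hochberg adjustment over these 13 permutation tests the lowest p was 0.65. As no p could lie under 0.1, none could be called at 0.05, so these tests cannot decide whether partners diverge. In HCT116 the same pair had 0.39 ± 0.07 for H2AC6 and -0.04 ± 0.15 for H2BC4.

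**Figure D4:**
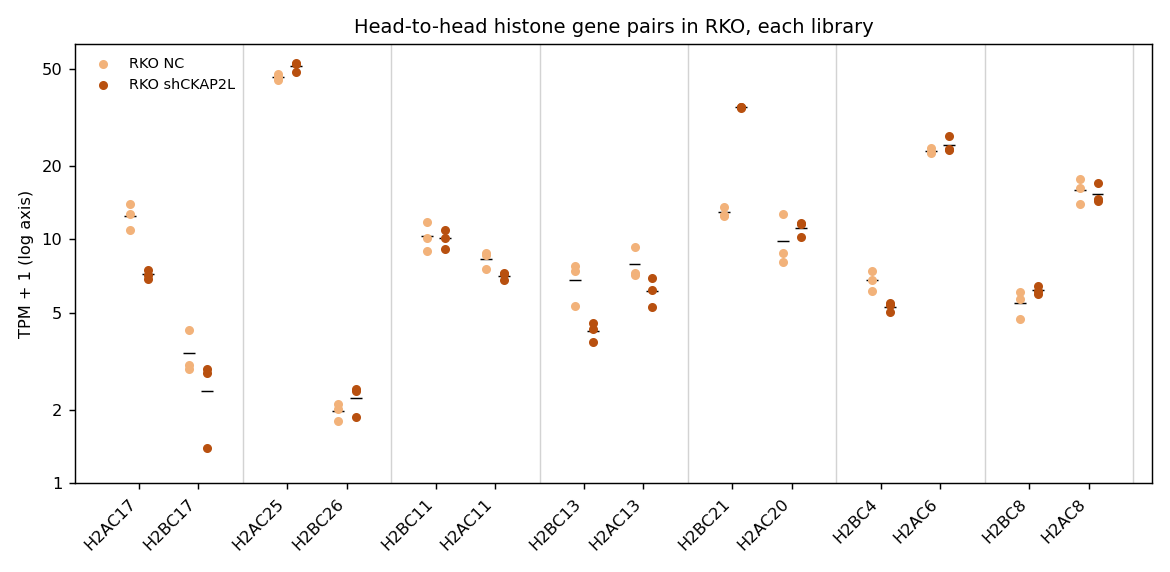
TPM + 1 on a log axis in RKO for the 7 head-to-head pairs in which both genes were tested, 1 point per library and a black bar at each group mean; grey lines separate pairs. H2BC21 is the gene whose groups lie farthest apart, while its partner H2AC20 overlaps.

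Setting the lines side by side, 31 members were tested in both. Of these, 5 were called in both with opposite signs, all higher with CKAP2L overexpression and lower with shCKAP2L. Of all genes, 8.26% were called in both with opposite signs, a share that pools both directions. H1-2, H2BC5, H2BC12 and H3-3B were among them. For H3-3B in RKO the sign turned under quantile normalization. Each of these named genes lost its call in 1 line under some alternative, H1-2 and H2BC12 in HCT116 and H2BC5 and H3-3B in RKO. H3-3A and MACROH2A2 were called in both with equal signs, 2 of 31 against 7.56% of all genes. The change with CKAP2L level was compared between lines in a joint limma model, as (CKAP2L minus vector) minus (NC minus shCKAP2L). This difference was called for 15 of 31 members, against 54.5% of all genes tested. It was above 0 for 7 (27.6% of all genes) and below 0 for 8 (27%). The line and the kind of manipulation cannot be told apart in it.

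Genes that act on histones were followed through chosen lists. Histone mRNA processing covers SLBP, the U7 particle and cleavage factors. In HCT116, 1 of its 20 tested genes rose and 1 fell, against 16.4% and 4.26% of all genes. In RKO 2 rose and 10 fell, against 26.4% and 42.1% of all genes, so the falls lay near the background. These background shares apply to each list. In RKO, LSM11, a protein of the U7 particle that cuts histone pre-mRNA, fell from 9.16 ± 0.147 to 5.87 ± 0.123 TPM (-0.56 ± 0.05, limma adjusted p = 6.47e-08). SLBP, named after its values were seen, was 99.5 ± 4.82 and 105.9 ± 1.46 TPM (0.09 ± 0.03, limma adjusted p = 0.0259).

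Of transcription factors and cofactors of histone genes, 5 of 13 rose and 6 fell in RKO, and 1 rose and 2 fell in HCT116. The subunits of NF-Y, the factor that binds CCAAT, did not move together in RKO. NFYA rose by 0.45 ± 0.03, NFYC fell by 0.44 ± 0.04, and NFYB was at 16.1 TPM in both groups (limma adjusted p = 0.992). CDK2, the S-phase kinase that acts on the histone gene activator NPAT, fell by 0.62 ± 0.03, while its cyclin partners CCNE1 and CCNE2 rose by 0.38 ± 0.04 and 0.23 ± 0.05. NFYB, NFYC, CCNE1 and CCNE2 were named in RKO after their values were seen. Of histone chaperones, 5 of 27 rose and 13 fell in RKO, and 3 of 26 rose and 3 fell in HCT116. In RKO, ANP32E, which removes H2A.Z from nucleosomes, changed by -0.47 ± 0.03, and ASF1A, an H3 and H4 chaperone, by -0.55 ± 0.04. DAXX, which carries replacement H3, changed by -0.37 ± 0.03. Of variant exchange complexes, 5 of 13 rose and 3 fell in RKO, and 1 rose and 2 fell in HCT116. RUVBL1, an ATPase of these complexes, changed by -0.38 ± 0.03 in RKO and -0.20 ± 0.03 in HCT116. CENPA, the centromeric H3 outside the naming rule, changed by -0.50 ± 0.04 in RKO and -0.21 ± 0.05 in HCT116.

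Cell-cycle genes were followed as lists too. In HCT116 falls outnumbered rises among the S phase genes. Rises outnumbered falls among the histone genes, but also among all genes tested (16.4% and 4.26%). For all genes this depended on scaling, with 1119 higher and 1203 lower after median-of-ratios rescaling. Of 30 S phase genes, 3 rose and 21 fell in RKO and 1 rose and 8 fell in HCT116. Their summed level was 2890 to 2980 TPM with NC and 2520 to 2560 with shCKAP2L, and 2230 to 2340 with vector and 2160 to 2190 with CKAP2L. Of 8 genes of the p21 and quiescence list, 4 rose and 1 fell in HCT116, and 1 rose and 6 fell in RKO. CDKN1A, the cell-cycle inhibitor p21, was 432.5 and 530.8 TPM in HCT116 vector and CKAP2L (0.30 ± 0.03, limma adjusted p = 6.77e-06). BTG2, an antiproliferative gene, changed by -0.99 ± 0.04 in RKO. The part of the cell-cycle genes in the histone changes was not tested.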

How the data were processed

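RNA of 12 libraries was measured by sequencing; per the labels, it was treated with DNase I and prepared with an mRNA kit. For each line the authors deposited TPM values of 20263 Ensembl genes in a table of its own. The tools named in the submitters' processing notes are HISAT2 2.0, bedtools 2.26.0, Trimmomatic 0.36 and FastQC 0.11.2, and the build is GRCh38. How reads were counted, with which annotation, strand setting and rule for multiple matches, was not given in the sources used here. TPM is a share and keeps no depth, so no counting interval was computed.

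Members, classes and the other gene lists were chosen with earlier results of these data known. Symbols came from a gene name table, positions and transcripts from GENCODE release 29 (GRCh38) and promoters from RefSeq (GRCh38.p14). In each line, genes averaging at least 1 TPM were compared on log2(TPM + 1) by limma 3.58.1 under R 4.3.3, with a trended prior, two-sided, with Benjamini-Hochberg adjustment over all genes tested and a call at adjusted p under 0.05. Each ± after a log2 fold change is a standard error and each ± after TPM an SD over 3 libraries. This log scale understates changes of low genes. Variants with at least 1 TPM in a line, called members with the largest changes and up to 4 genes per list were named by rule; other tested members are named for description, and 1 member is counted but not reported here. The limma step was tested on simulated data. Shared sequence was measured as the percent of 50-base windows of a gene's longest protein-coding transcript found in another gene. Equal replicate numbers did not pair libraries: same-number deviations correlated at -0.0881 to 0.0486, so no block was used.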

Additional observations from a re-analysis of the deposited data

Results flagged for a closer look

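The change with CKAP2L level differed between the lines in the joint limma model for 15 of 31 members tested in both, against 54.5% of all genes tested. The difference is (CKAP2L minus vector in HCT116) minus (NC minus shCKAP2L in RKO) on the log2(TPM + 1) scale, and 7 were above 0 and 8 below. The highest differences were those of H2BC21 (1.76), MACROH2A1 (1.36) and H2BC18 (0.80), which rose with shCKAP2L in RKO. H2BC18 passed the filter in each line only through 1 group. H3C6 (0.51) and H2AC6 (0.47) rose in HCT116 and were not called in RKO. MACROH2A2 (0.31) rose in both lines, and H3-3B (0.18) rose in HCT116.

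The lowest differences were those of H2BC17 (-1.10) and H2AX (-0.70), followed by H1-10 (-0.44), H3-3A (-0.43), H1-2 (-0.38), H2AZ1 (-0.36) and H2AZ2 (-0.36). H2AX, H1-10, H2AZ1 and H2AZ2 fell in RKO and were not called in HCT116. H1-2 rose in HCT116 and fell in RKO, with the larger change in RKO. The call of H2BC17 was lost on leaving out vector replicate 1, CKAP2L replicate 2, NC replicate 1 or shCKAP2L replicate 3, with differences of -1.01, -0.87, -0.93 and -0.75 and limma adjusted p-values of 0.061, 0.082, 0.0758 and 0.0908.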

How the results depend on the processing

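Of the members called in HCT116, 2 lost the call under some alternative, H1-2 and H2BC12; in RKO 6 did, H2AC13, H2BC5, H2BC6, H2BC17, H3-3B and H4C4; in the difference between lines only H2BC17 did. The 1 change of sign among called members was H3-3B in RKO, 0.01 after quantile normalization. In HCT116, clustered genes called higher were 3 without mitochondrial mRNAs, 3 with limma without a trend and 3 to 8 with each library left out, in place of 5. Clustered genes called lower were 1 with no filter on low values and 0 to 1 with each library left out, in place of 0 (at an unadjusted p under 0.05, 8 clustered genes passed in either direction). Variants called lower were 2 after median-of-ratios rescaling, in place of 1. In RKO, clustered genes called higher were 6 after that rescaling and 3 to 5 with each library left out, in place of 3; clustered genes called lower were 9 at a mean TPM of at least 5, where 15 were tested, in place of 17. The variant sum ratio was 1.06 after rescaling and 1.07 without mitochondrial mRNAs in HCT116, in place of 1.10, and 0.831 and 0.825 in RKO, in place of 0.806. The clustered ratio of RKO was 0.981 without H1-2 and H2BC12. Apart from those with fewer genes or libraries by construction, the cause of these shifts was not tested. With the replicate number as a block, 6 clustered genes were called higher in HCT116, 4 higher and 19 lower in RKO, and 17 members in the difference. Unknown depth and low TPM limit what can be said of most clustered genes.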
